A study of Mus musculus with 8 samples.

Results

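The response of the WT mouse colon to 1 cycle of AOM-DSS was examined by comparing 2 WT mice collected at day 15 with 2 WT mice collected at day 0. These 4 libraries were chosen by their labels among the 8 RNA-seq libraries of the series, and all 14371 genes that passed a filter on low counts were tested, of 15859 genes in the table of counts. All mice were labelled as males of a mixed BALB/c x 129SvEV background with a labelled age of 10 weeks, where the design text of the series gives a slightly younger age, and the tissue was the distal colon. Day 15 mice had received azoxymethane (AOM), a carcinogen that alkylates DNA, at 10 mg/kg by intraperitoneal injection at 8 weeks of age. From day 7 they drank water with 1.5% dextran sulfate sodium (DSS), a polymer that injures the colon epithelium, for 5 days. Day 0 mice were untreated and age matched. The protocol in the labels ends directly after DSS, whereas the sample titles and the methods of the study place collection at day 15. No group received AOM alone or DSS alone, so effects of the 2 agents cannot be told apart. The remaining 4 libraries came from Hsf1 null mice at the same days. They entered the fit for its estimate of the spread between mice, and their response is set beside that of WT mice only in the closing comparison of genotypes.

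The colon is lined by a single layer of epithelium that is renewed from stem cells at the crypt base. Absorptive colonocytes take up salt, water and short-chain fatty acids, and goblet cells secrete the mucus that keeps bacteria away from the tissue. When DSS breaks this layer, bacteria reach the lamina propria, neutrophils and monocytes enter from the blood, and surviving epithelium spreads and divides to close the wound while the matrix beneath is rebuilt.

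The 4 WT libraries held between 2553348 and 11097367 counts, and the smallest was replicate 2 of WT day 0. Levels are counts per 1000000 (CPM) with library sizes adjusted by the TMM method, and are compared between mice but not between genes. The tissue label was borne out by the colon markers, since the distal homeobox gene Hoxb13 was at 278 and 515 CPM at day 0 and 294 and 123 CPM at day 15, and the intestinal gene Cdx2 was at 46.2 and 82.6 CPM and 91.3 and 80.5 CPM. Hoxd13, expressed towards the end of the gut, was lower in treated replicate 2, at 160.3 and 185 CPM at day 0 and 91.9 and 9.51 CPM at day 15, and where along the colon each piece was taken was not tested. Hsf1 itself, intact in these mice, was at 40.5 and 36.5 CPM at day 0 and 50.5 and 45.9 CPM at day 15 and did not pass the test (0.32 ± 0.28, adjusted p = 0.492). Values in parentheses of this form are the log2 fold change from day 0 to day 15, its standard error (SE) and the adjusted p of edgeR's quasi-likelihood test.

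Replicate 1 of WT day 0 stood apart in several respects. Xist, the RNA that coats the inactive X chromosome of female cells, had 183 and 0 CPM at day 0 and 2.17 and 1.37 CPM at day 15, although all mice were labelled male. The Y-linked genes Ddx3y, Kdm5d, Uty and Eif2s3y summed to 70.8 CPM in that library and to between 43.6 and 74.2 CPM in the other WT libraries. The same library was also higher than its partner in stromal transcripts. The matrix cross-linking enzyme Lox had 285 and 5.96 CPM in the day 0 mice, the metalloproteinase inhibitor Timp1 163 and 7.54 CPM, the fibrillar collagen gene Col1a1 1065 and 166 CPM and the adipocyte hormone Adipoq 17.3 and 4.76 CPM. The cause of these differences was not tested.

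A gene was called higher or lower, and is said to have risen or fallen, where edgeR's quasi-likelihood test gave an adjusted p under 0.05 and the absolute log2 fold change from day 0 to day 15 was above 1. By this rule, 1112 of 14371 genes were called (7.74% of genes tested), of which 499 were higher (3.47%) and 613 were lower (4.27%) at day 15. The median fold was 3.49 among those called higher and 3.30 among those called lower, and 103 and 97 of them changed by more than 8-fold. Over all genes tested the median log2 fold change was 0.0046, and 50.2% of genes were above 0. The values of the 2 groups of WT mice did not overlap for 1111 of the 1112 called genes, and the exception was Xist, but they also did not overlap for 62.5% of all genes tested.

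**Figure D1:**
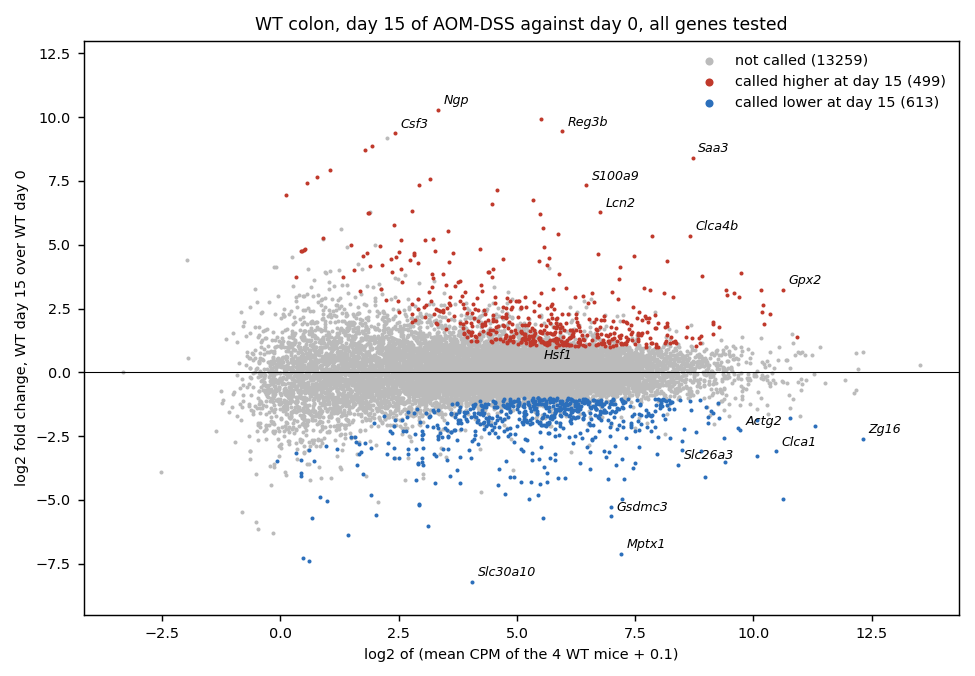
Each point is 1 of the 14371 genes tested in WT colon, with the log2 of the mean CPM of the 4 WT mice plus 0.1 on the x axis, the log2 fold change from day 0 to day 15 on the y axis, the 499 genes called higher in red and the 613 called lower in blue. Saa3, Reg3b and Clca4b stand well above the line and Mptx1, Gsdmc3 and Slc30a10 well below it.

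The number of calls depended on single mice. When each WT mouse was left out in turn, in the order day 0 replicate 1, day 0 replicate 2, day 15 replicate 1 and day 15 replicate 2, 485, 133, 773 and 92 genes were called, and counts with 1 mouse left out are given in that order throughout. Of the 1112 genes, 428, 113, 579 and 91 were still called. Xist had a log2 fold change of 6.75 without WT day 0 replicate 1 and -5.70 with it. There were 63 genes that passed whichever WT mouse was left out, 31 higher and 32 lower. Among them were Saa3, Lcn2, S100a8, S100a9, Reg3b, Nos2 and Gpx2, which were higher, and Slc26a3, Slc15a1, Abcb1a, Gsdmc3 and Cyp2c55, which were lower. The 2 treated mice also differed in extent. Of the 499 genes called higher, 81 were more than 2-fold higher in replicate 2 than in replicate 1 and 10 the reverse. Of the 613 called lower, 90 were more than 2-fold higher in replicate 1 and 11 in replicate 2, so that replicate 2 lay further from day 0 in both directions. Over all genes tested, 14.5% were more than 2-fold apart between these mice.

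**Figure D2:**
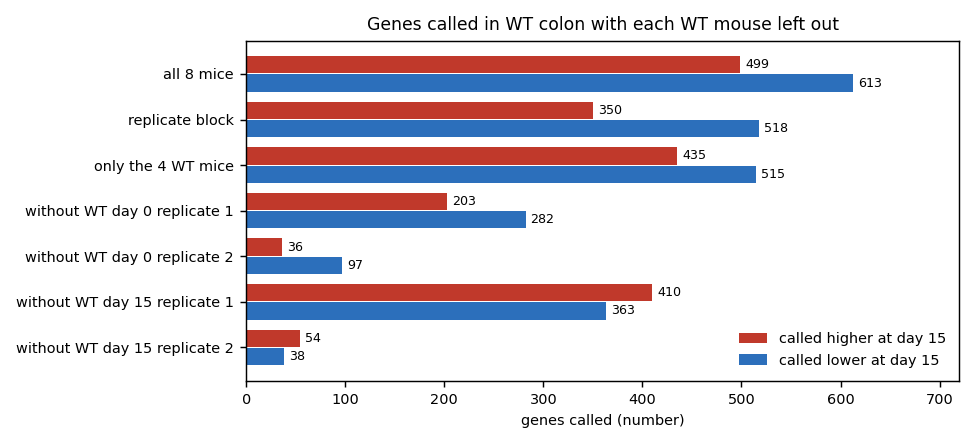
Bars give the number of genes called in WT colon, red for higher and blue for lower at day 15, for the fit of all 8 mice and for fits with the replicate number as a block, with the 4 WT mice alone and with each WT mouse left out. The bars are shortest without WT day 0 replicate 2 (36 higher and 97 lower) and without WT day 15 replicate 2 (54 and 38).

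The 8 genes with the largest fitted rises among called genes without overlap were Ngp, 4732456N10Rik, Reg3b, Csf3, Stfa2, Chil3, Saa3 and Stfa2l1. Most are transcripts of neutrophils or macrophages or proteins of innate defence that were barely detected at day 0. Ngp, a granule protein of neutrophils at chr9:110419747-110423012 of GRCm38, had no read in either mouse at day 0 and 11.5 and 28.6 CPM at day 15, which is at least 81.5-fold higher when computed against 3 reads over the 2 day 0 libraries. Csf3, which encodes the growth factor G-CSF that drives neutrophil production (chr11:98701263-98703629), likewise went from no read to 6.35 and 14.8 CPM and was at least 43.1-fold higher. Chil3, a chitinase-like protein of macrophages and neutrophils, reached 9.22 and 4.22 CPM from no read (at least 29.5-fold). The protease inhibitors Stfa2 and Stfa2l1, whose reads may be shared between similar copies, were at 2.78 and 12 CPM and 1.22 and 6.65 CPM from no read (at least 29.5-fold and 15.6-fold). Reg3b, a lectin that kills bacteria (chr6:78370657-78373466), went from 0.0980 and 0.397 CPM, 2 reads in all, to 67.2 and 180.4 CPM, a ratio of 752 with a 95% counting interval of 208 to 6217. The transcript 4732456N10Rik, with 1 read at day 0, rose from 0.0980 and 0 CPM to 73 and 109 CPM.

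The 8 largest fitted falls were those of Slc30a10, Bex4, AF529169, Mptx1, Otc, 5033404E19Rik, Lrp2 and Gsdmc3. Slc30a10, a manganese exporter at chr1:185454848-185468762, went from 22.8 and 43.3 CPM to 0.174 and 0 CPM, a ratio of 282 (95% counting interval 77.4 to 2336). 5033404E19Rik, annotated as a transcribed pseudogene beside it at chr1:185487294-185498159, fell with it from 11.1 and 22.6 CPM to 0.435 and 0 CPM. Mptx1, a pentraxin secreted into mucus (chr1:174330518-174332873), fell from 142 and 445 CPM to 3.04 and 1.06 CPM (-7.11 ± 0.89, adjusted p = 0.00597). Otc, a urea cycle enzyme of mitochondria, went from 5.88 and 4.37 CPM to 0.0870 and 0 CPM. Bex4 and AF529169 had no read at day 15 and were at least 16.5-fold and 15.4-fold lower. Lrp2 was carried by 1 library, with 5.49 and 0.397 CPM in the day 0 mice, was not tested without the first of them, and was not called with any other WT mouse left out. Gsdmc3 is described with its family below.

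Neutrophil transcripts rose, most of them from near absence. Of the 20 tested genes of a 30-gene neutrophil list, 14 rose and none fell. The median log2 fold change of the 20 was 4.71 (4.59 with the 3 genes unread at day 0 set at their lower bound). Members nearly unread in the WT day 0 mice passed the filter on low counts through their reads in other libraries. That selection favours rises, so the count and the median are partly set by the filter. S100a8 and S100a9, the subunits of calprotectin, were at 0.294 and 0.397 CPM and 1.18 and 0.794 CPM at day 0. At day 15 they were at 23.1 and 72 CPM and 54.5 and 297 CPM. Their log2 fold changes were 7.15 ± 1.04, adjusted p = 0.00772 and 7.33 ± 0.96, adjusted p = 0.00597. In both genes replicate 2 was the higher treated mouse and the groups were far apart. Retnlg, a resistin-like hormone of neutrophils, rose from 0.588 and 0 CPM to 21.7 and 66.5 CPM (6.59 ± 0.84, adjusted p = 0.00597). The granule protein Ltf (lactoferrin) and the gelatinase Mmp9 also rose, to 7.22 and 6.02 CPM and 15.5 and 36 CPM, as did the receptors for bacterial formyl peptides Fpr1 and Fpr2, to 0.870 and 13.2 CPM and 2.87 and 34.3 CPM. The count of members called higher was 5, 4, 16 and 3 with each WT mouse left out, and S100a8, S100a9 and Retnlg were among them each time. Summed over the list, levels were 370 and 205 CPM at day 0 and 979 and 1351 CPM at day 15, of which Cd177 made up 333 and 182 CPM and 752 and 567 CPM. In bulk tissue, more cells of a type and more RNA per cell cannot be told apart.

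**Figure D3:**
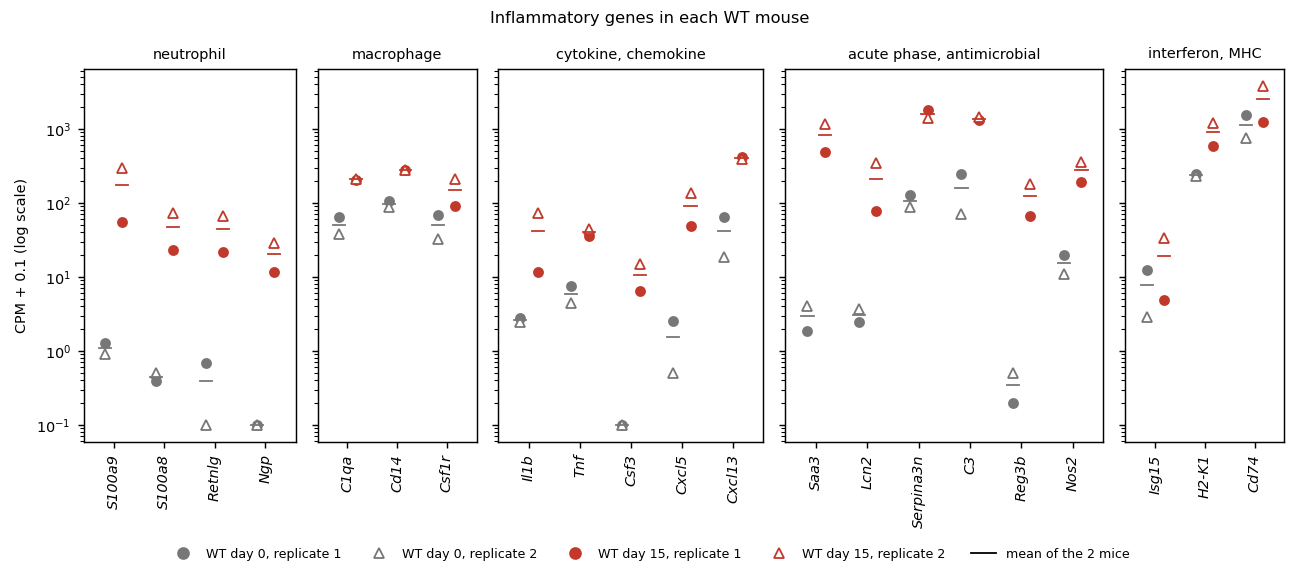
CPM plus 0.1 on a log axis for inflammatory genes in each WT mouse, with day 0 in grey and day 15 in red, circles for replicate 1, triangles for replicate 2 and a bar for the mean of the 2 mice. The neutrophil genes, Saa3, Lcn2 and Reg3b lie far above day 0 in both treated mice, and Isg15 and Cd74 overlap between the groups.

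Promoters of 5 neutrophil and acute-phase genes that rose are shown for their matches to a C/EBP motif. C/EBP factors are transcription factors of granulocytes and of the acute-phase response. The motif TTGCNNAA was searched on both strands in the 250 bases before the start of each gene, in RefSeq windows of GRCm38.p6, which 10890 of the tested genes had. It was found in 7.48% of these windows, in 9.54% of genes called higher (37 of 388) and in 9.35% of genes called lower (43 of 460). The stretches below read 5′ to 3′ on the strand of the gene, with the match in capitals, which is spelled as found on that strand and so may be the reverse complement of the motif.
Ngp (chr9:110419777-110419807, + strand): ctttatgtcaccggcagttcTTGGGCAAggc
Ltf (chr9:111019197-111019244, + strand): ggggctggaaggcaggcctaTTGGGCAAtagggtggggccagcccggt
Lcn2 (chr2:32387928-32387975, - strand): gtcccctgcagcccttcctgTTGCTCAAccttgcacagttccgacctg
Saa3 (chr7:46715748-46715795, - strand): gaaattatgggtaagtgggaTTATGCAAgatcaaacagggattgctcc
S100a9 (chr3:90695930-90695971, - strand): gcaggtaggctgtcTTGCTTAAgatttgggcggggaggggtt
The matches began 11, 75, 216, 99 and 236 bases before the start of the RefSeq transcript, which for Ngp lies within the GENCODE gene. Ngp held 2 matches, of which the nearer to the start is shown. These genes were chosen after their values and motifs were seen, and a match is a description of the letters and not a bound site.

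More acute-phase genes were called higher than were not called. Of 21 tested members, 12 rose and none fell (median 3.10). Saa3, a serum amyloid A made by epithelium and macrophages (chr7:46711998-46715700), had the smallest p of all genes tested. It was at 1.76 and 3.97 CPM at day 0 and 489.7 and 1185 CPM at day 15 (8.42 ± 0.58, adjusted p = 7.12e-04). Lcn2, lipocalin 2, which withholds iron from bacteria, rose from 2.35 and 3.57 CPM to 78.6 and 347 CPM (6.27 ± 0.75, adjusted p = 0.00591). The serpins Serpina3n and Serpina3m, close copies that may share reads, rose from 126 and 87.3 CPM to 1792 and 1406 CPM and from 4.02 and 1.19 CPM to 113 and 72.2 CPM. The 2 treated mice lay close together for Serpina3n and apart for Lcn2. Haptoglobin (Hp) rose from 7.25 and 1.59 CPM to 90.8 and 98.3 CPM, and the lipopolysaccharide-binding protein Lbp from 6.86 and 7.94 CPM to 54.4 and 46.6 CPM. When each WT mouse was left out, 13, 6, 14 and 8 members were called higher. Without WT day 0 replicate 2 a member was also called lower. Timp1 belonged to the list and was not called, with 163 and 7.54 CPM at day 0 and 55.6 and 183 CPM at day 15. Socs3, the feedback inhibitor that STAT3 induces, rose from 7.35 and 7.94 CPM to 89.9 and 133 CPM (3.87 ± 0.36, adjusted p = 0.00283) and passed in each fit with a WT mouse left out. Stat3 was at 166 and 163 CPM and 262 and 270.4 CPM and did not pass (0.70 ± 0.26, adjusted p = 0.114). Bcl3 was the other of 22 genes of IL-6 signalling to rise, and the list's median was 0.43.

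Among cytokines of a general list, 3 of 19 tested rose and 2 fell, with a median of 1.69, and 1, 1, 5 and 0 rose and none fell with each WT mouse left out. Tnf was at 7.35 and 4.37 CPM at day 0 and 35.9 and 44.9 CPM at day 15 (2.72 ± 0.53, adjusted p = 0.0189). Ltb, the lymphotoxin that organises lymphoid tissue, rose from 19.9 and 7.54 CPM to 60.5 and 124 CPM, and Csf3 is described above. Il15 and the stem cell factor gene Kitl fell, Kitl from 72.9 and 78.2 CPM to 27.2 and 25.6 CPM (-1.52 ± 0.39, adjusted p = 0.0445). Il6 was not among the genes tested. In the interleukin-1 family, 5 of 21 rose and none fell. Il1b was at 2.65 and 2.38 CPM at day 0 and 11.6 and 72.6 CPM at day 15 (4.03 ± 0.87, adjusted p = 0.0265), with replicate 2 well above replicate 1. The decoy receptor Il1r2 rose from 1.57 and 0.794 CPM to 8.96 and 25.6 CPM and the alarmin Il33 from 3.63 and 3.97 CPM to 9.74 and 59.2 CPM, also with replicate 2 the higher. Il18bp and Myd88 rose as well. No interleukin-1 gene was called without WT day 0 replicate 1, without WT day 0 replicate 2 or without WT day 15 replicate 2. Il1rn, the receptor antagonist, was at 139 and 145 CPM and 153 and 251 CPM and did not pass.

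Some chemokines that attract neutrophils rose. Of 29 chemokine ligands, 5 rose and 1 fell, with a median of 1.79, and with each WT mouse left out 3, 0, 12 and 0 rose. Cxcl5 was at 2.45 and 0.397 CPM at day 0 and 48.2 and 136 CPM at day 15 (5.65 ± 0.94, adjusted p = 0.0111). Cxcl2 went from 0.392 and 0.397 CPM to 6.26 and 15.4 CPM and Cxcl1 from 1.18 and 1.19 CPM to 12.9 and 21.4 CPM, all 3 being ligands of the neutrophil receptor Cxcr2. Cxcl13, which draws B cells into follicles, rose from 65.5 and 18.3 CPM to 421 and 397 CPM (3.24 ± 0.58, adjusted p = 0.0145), and Cxcl14 rose as well. Ccl28, an epithelial chemokine for IgA plasma cells, fell from 84.1 and 81.8 CPM to 30.5 and 16.4 CPM (-1.82 ± 0.35, adjusted p = 0.0177). Ccl2, the monocyte chemokine, overlapped between the groups at 12 and 2.78 CPM and 4.18 and 31.2 CPM. The NF-kB motif GGANTTTCC, searched as above, was found in 1.14% of all windows, in 2.32% of genes called higher (9 of 388) and in 1.74% of those called lower (8 of 460). It is shown for the neighbouring genes Cxcl1 and Cxcl2, where it lay 70 and 96 bases before the start.
Cxcl1 (chr5:90891155-90891203, + strand): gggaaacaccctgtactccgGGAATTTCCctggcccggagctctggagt
Cxcl2 (chr5:90903783-90903831, + strand): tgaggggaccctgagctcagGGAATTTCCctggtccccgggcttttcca
Of 27 genes of the NF-kB pathway, 3 rose, namely Nfkbid, Bcl3 and Icam1, against 1, 0, 4 and 0 with each WT mouse left out. Nfkb1 and the inhibitor Nfkbia did not pass (0.44 ± 0.27, adjusted p = 0.327 and 0.48 ± 0.55, adjusted p = 0.605).

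Macrophage and complement transcripts rose in part. Of 29 macrophage markers, 8 rose and none fell (median 1.56). The C1q genes, which tissue macrophages make, rose together, with C1qa at 63.5 and 37.7 CPM at day 0 and 206 and 212 CPM at day 15 (2.03 ± 0.31, adjusted p = 0.00882). Cd14, a receptor for lipopolysaccharide, rose from 106 and 87.7 CPM to 278 and 281 CPM (1.53 ± 0.26, adjusted p = 0.0122) and Ly6c2, a marker of inflammatory monocytes, from 27.8 and 27.4 CPM to 68.4 and 115 CPM. Csf1r and Cd68 did not pass (1.53 ± 0.47, adjusted p = 0.0735 and 1.46 ± 0.47, adjusted p = 0.0816), and for Csf1r the lower treated mouse was close to the higher control, at 89.7 and 209 CPM against 68.6 and 33 CPM. When each WT mouse was left out, 4, 0, 9 and 2 members were called higher and 0, 1, 0 and 0 lower. The list summed to 1677 and 741 CPM at day 0 and 2244 and 3802 CPM at day 15. Of 24 complement genes, 7 rose and none fell, and 6, 0, 8 and 2 were called higher when each WT mouse was left out, so that no complement call was left without WT day 0 replicate 2. C3 was at 249 and 70.3 CPM and 1314 and 1441 CPM (3.10 ± 0.61, adjusted p = 0.0189) and C4b at 88.4 and 56.8 CPM and 666 and 455 CPM (2.94 ± 0.44, adjusted p = 0.00834). Properdin (Cfp) rose, and factor B (Cfb) did not pass at 1.05 ± 0.31, adjusted p = 0.0648.

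Mast cell proteases of the mucosal type rose, being 2 of the 9 tested genes of mast cells and eosinophils. Mcpt1 was at 12 and 6.35 CPM at day 0 and 90.9 and 73.1 CPM at day 15 (3.09 ± 0.41, adjusted p = 0.00597), and Mcpt2, a close copy, went from 2.35 and 1.59 CPM to 19.4 and 30.3 CPM. Mcpt1 passed with any WT mouse left out. Cpa3, carboxypeptidase A of mast cells, was at 0.392 and 0 CPM and 2.0 and 2.85 CPM and did not pass. Kit, the receptor of mast cells and of the pacemaker cells of the gut wall, fell from 59.7 and 71.9 CPM to 30.0 and 25.1 CPM (-1.25 ± 0.25, adjusted p = 0.0219).

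T cell transcripts were low. Of 30 markers of T and NK cells, 5 rose, 1 fell and 26 were above 0 (median 1.82). Cd3e, a chain of the T cell receptor complex, was at 6.66 and 3.18 CPM at day 0 and 25.5 and 33.7 CPM at day 15 (2.49 ± 0.50, adjusted p = 0.0201). Foxp3, the factor that defines regulatory T cells, went from 1.67 and 0.794 CPM to 7.31 and 12.1 CPM (2.81 ± 0.75, adjusted p = 0.0485), and the checkpoint receptor Ctla4 from 1.96 and 1.59 CPM to 7.13 and 11.7 CPM. Cd8a did not pass (1.66 ± 0.67, adjusted p = 0.142). Leaving out each WT mouse gave 4, 0, 5 and 0 members called higher. Of 23 B and plasma cell genes, only Pou2af1 and Irf4 passed, with 3, 0, 2 and 0 called higher when each WT mouse was left out. All 23 were above 0, and Jchain, the joining chain of secreted antibodies, was at 1706 and 1618 CPM and 2747 and 2615 CPM (0.69 ± 0.66, adjusted p = 0.530).

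The 2 treated mice differed in interferon-induced genes. None of 52 was called by edgeR's quasi-likelihood test (11 had an unadjusted p under 0.05, and DESeq2 called 7), and their median was 0.70. All 52 were higher in WT day 15 replicate 2 than in replicate 1. In replicate 1, 44 of 52 lay below WT day 0 replicate 1, and the list summed to 1908 and 1412 CPM at day 0 and 1226 and 4442 CPM at day 15. Isg15, a ubiquitin-like protein, was at 12.4 and 2.78 CPM at day 0 and 4.78 and 33.1 CPM at day 15 (1.19 ± 0.88, adjusted p = 0.410), and Ifit1 at 25.3 and 5.16 CPM and 2.44 and 26.5 CPM. With each WT mouse left out, 0, 0, 13 and 0 members were called higher. Class II genes of antigen presentation had the same form, with Cd74 at 1543 and 751 CPM and 1243 and 3786 CPM (1.13 ± 0.57, adjusted p = 0.229) and H2-Aa at 661 and 287 CPM and 633 and 1858 CPM. Of 23 MHC genes, edgeR called 2 higher, the class I genes H2-K1 and H2-D1, and DESeq2 called 13. H2-K1 went from 249.8 and 229 CPM to 582 and 1214 CPM (1.91 ± 0.38, adjusted p = 0.0210), and 0, 0, 11 and 0 MHC genes were called higher with each WT mouse left out.

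Epithelial defence shifted in both directions, with 6 of 23 antimicrobial genes higher and 3 lower. These counts were 6, 4, 7 and 4 higher and 2, 1, 2 and 0 lower with each WT mouse left out. Reg3g, the partner of Reg3b, was at 0.980 and 0 CPM at day 0 and 44.8 and 117 CPM at day 15 (6.76 ± 1.12, adjusted p = 0.0111). Nos2, inducible nitric oxide synthase, rose from 19.8 and 10.7 CPM to 190.1 and 359 CPM (4.11 ± 0.50, adjusted p = 0.00591), and Duoxa2, which matures the epithelial peroxide source Duox2, from 36.4 and 52.8 CPM to 185 and 182 CPM (2.06 ± 0.26, adjusted p = 0.00597). The secreted phospholipase Pla2g2a rose from 24.8 and 28.6 CPM to 369.9 and 728 CPM. Reg3b, Nos2, Duoxa2 and Pla2g2a passed with any WT mouse left out. The mucus lectin Zg16 fell from 6465 and 11019 CPM to 1379 and 1503 CPM (-2.60 ± 0.54, adjusted p = 0.0228). Pigr, the receptor that carries IgA into the lumen, fell from 3689.7 and 4469.6 CPM to 1429 and 489 CPM (-2.09 ± 0.50, adjusted p = 0.0355), and the calcium-binding protein S100g from 7.15 and 8.34 CPM to 0.0870 and 0.211 CPM.

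**Figure D4:**
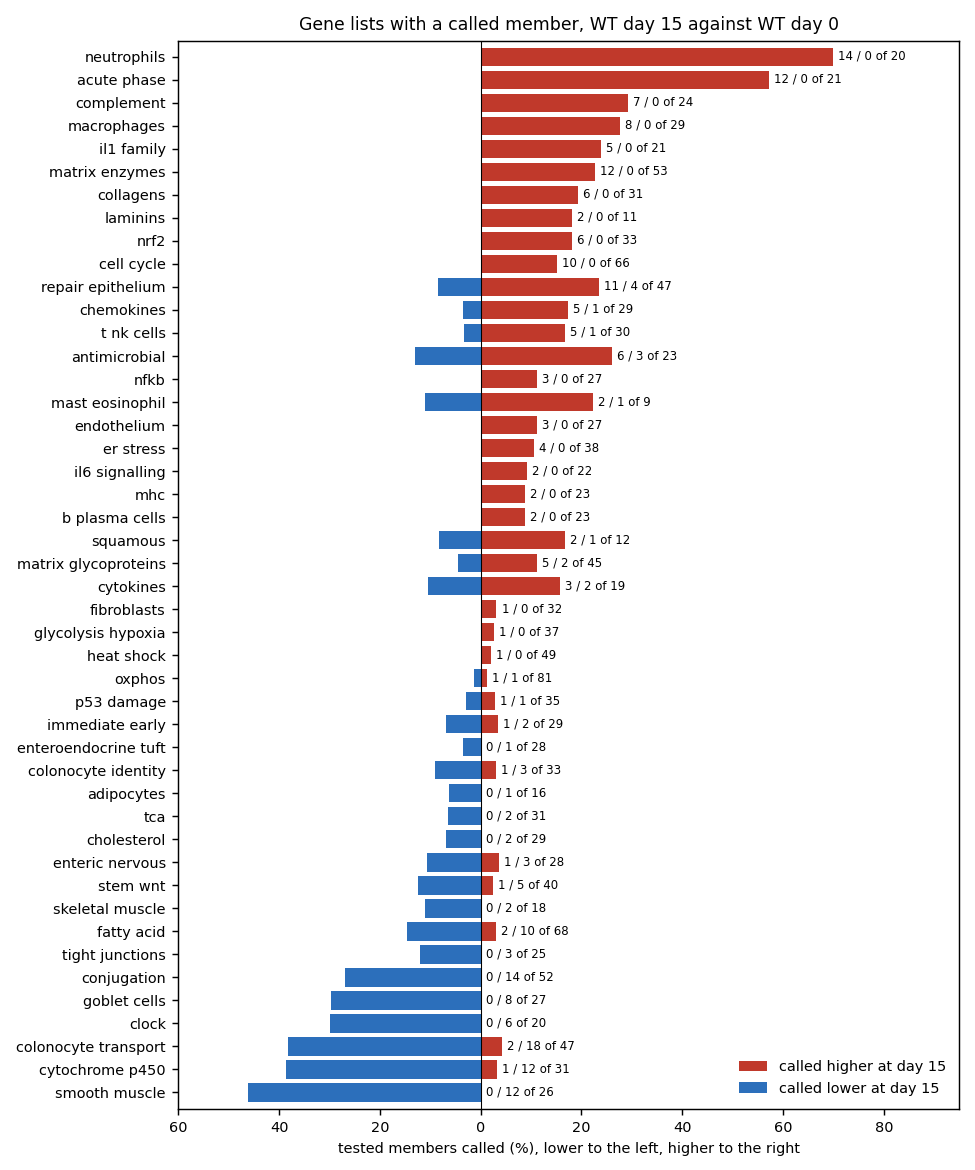
For each gene list with at least 1 called member, bars give the percentage of tested members called higher (red, to the right) and lower (blue, to the left) at day 15 in WT colon. The numbers give higher and lower calls of the members tested. Over all genes tested, which are not drawn, 3.47% were called higher and 4.27% lower. Neutrophil (14 of 20) and acute-phase genes (12 of 21) lie at the top, and smooth muscle (12 of 26), cytochrome P450 (12 of 31) and colonocyte transport genes (18 of 47) at the bottom.

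Several secreted metalloproteinases rose. Of 53 matrix enzymes and inhibitors, which include cross-linking enzymes, 12 rose and none fell, with a median of 0.70. The stromelysins Mmp3 and Mmp10 were at 3.72 and 0.397 CPM and 1.47 and 0.397 CPM at day 0. At day 15 they were at 14.3 and 215 CPM and 14.4 and 162 CPM (5.43 ± 1.22, adjusted p = 0.0289 and 6.21 ± 1.33, adjusted p = 0.0251), so that replicate 2 far exceeded replicate 1. The collagenase Mmp13 had the same form, at 3.43 and 1.19 CPM and 7.22 and 73.2 CPM. Mmp7, matrilysin of the epithelium, went from 0.196 and 0 CPM, 2 reads in all, to 6.87 and 3.70 CPM, a ratio of 34.6 (95% counting interval 9.36 to 289). The gelatinase Mmp2 rose in both treated mice, from 95.4 and 67.5 CPM to 457 and 260.4 CPM (2.13 ± 0.46, adjusted p = 0.0265). The tissue plasminogen activator Plat, the aggrecanase Adamts4 and transglutaminase 2 (Tgm2) also rose, Tgm2 from 66 and 62.3 CPM to 158 and 345 CPM. Leaving out each WT mouse gave 8, 0, 10 and 0 members called higher. Without WT day 0 replicate 2, and without WT day 15 replicate 1, a member was called lower. Lox was not called at -2.03 ± 1.04, adjusted p = 0.238, and its day 0 mice were at 285 and 5.96 CPM and its day 15 mice at 31.9 and 40.7 CPM. The metalloproteinase genes on chromosome 9 are shown for an AP-1 motif near their starts, AP-1 being the factor class that phorbol esters and cytokines activate. TGANTCA was found in 4.78% of all windows, in 5.93% of genes called higher (23 of 388) and in 5.22% of those called lower (24 of 460). It lay 46, 63, 35 and 63 bases before the start in these 4 genes, which were chosen after their values and motifs were seen.
Mmp3 (chr9:7445756-7445802, + strand): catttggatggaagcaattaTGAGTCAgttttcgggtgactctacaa
Mmp10 (chr9:7502259-7502305, + strand): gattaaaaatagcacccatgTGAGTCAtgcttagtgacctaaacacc
Mmp13 (chr9:7272459-7272505, + strand): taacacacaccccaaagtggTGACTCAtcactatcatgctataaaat
Mmp7 (chr9:7692007-7692053, + strand): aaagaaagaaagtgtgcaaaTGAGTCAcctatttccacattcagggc

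Some collagen and laminin chains rose. Of 31 collagen chains, 6 rose and none fell (median 0.87), namely Col4a1, Col4a2, Col5a3, Col16a1, Col18a1 and Col27a1. Col18a1, the source of endostatin, was at 44.7 and 31.4 CPM at day 0 and 482 and 269.6 CPM at day 15 (3.29 ± 0.52, adjusted p = 0.0103). Of the type IV chains, Col4a1 rose from 278 and 182 CPM to 899 and 912 CPM (1.97 ± 0.46, adjusted p = 0.0315) and Col4a2 from 188 and 161 CPM to 665 and 536 CPM, while Col4a5 had a log2 fold change of -1.67 ± 0.46, adjusted p = 0.0544 and did not pass. Of 11 laminin chains 2 rose. Lama1 went from 2.25 and 2.38 CPM to 38.3 and 61.4 CPM (4.43 ± 0.56, adjusted p = 0.00597) and passed with any WT mouse left out, and Lama5, which went from 48.2 and 28.6 CPM to 103 and 100.3 CPM, was not called with any of them left out. Col1a1 was at 1065 and 166 CPM and 802 and 603 CPM (0.19 ± 0.71, adjusted p = 0.889), with WT day 0 replicate 1 the highest of the 4 mice. With each WT mouse left out, 2, 0, 2 and 1 collagen chains were called higher. Among 45 matrix glycoproteins, 5 rose and 2 fell. The growth factor binding protein Igfbp5 rose from 152 and 113 CPM to 1148 and 1331 CPM (3.22 ± 0.39, adjusted p = 0.00591) and its relative Igfbp4 from 237 and 144 CPM to 1362 and 1557 CPM (2.93 ± 0.49, adjusted p = 0.0111). Elastin (Eln) rose from 29.6 and 8.34 CPM to 261 and 84.4 CPM (3.10 ± 0.75, adjusted p = 0.0356), and the small proteoglycan Ogn and Sparcl1 fell. In this list 4, 1, 2 and 2 members were called higher and 0, 3, 1 and 0 lower when each WT mouse was left out. Fn1 and Tnc did not pass (-0.77 ± 0.41, adjusted p = 0.253 and -0.14 ± 0.63, adjusted p = 0.903). Of 32 fibroblast markers 1 was called, Ly6a, which epithelium and endothelium also express. Pdgfra and Vim did not pass (0.54 ± 0.47, adjusted p = 0.487 and -1.0 ± 0.59, adjusted p = 0.300). The fibroblast list summed to 5449 and 3657 CPM at day 0 and 4655 and 5838 CPM at day 15, with its lowest value in WT day 0 replicate 2.

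A few vessel genes rose. Of 27 endothelial genes 3 rose and none fell, namely Madcam1, the addressin of gut venules, from 4.41 and 1.19 CPM to 18 and 52.1 CPM (3.44 ± 0.72, adjusted p = 0.0245), P-selectin (Selp) from 1.18 and 0.397 CPM to 8.0 and 13.7 CPM, and Plvap, of fenestrated endothelium, from 40.6 and 31.4 CPM to 117 and 129 CPM (1.76 ± 0.29, adjusted p = 0.0111). Pecam1 and Cdh5, which mark all endothelium, did not pass (1.29 ± 0.37, adjusted p = 0.0590 and 1.16 ± 0.45, adjusted p = 0.128). Counts of members called higher with each WT mouse left out were 2, 0, 3 and 0.

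Many smooth muscle genes fell. Of 26 tested, 12 fell, none rose and 25 were below 0, with a median of -1.17. Myh11, smooth muscle myosin, was at 662 and 1037 CPM at day 0 and 355 and 207 CPM at day 15 (-1.59 ± 0.34, adjusted p = 0.0256). Desmin (Des) went from 664 and 1246 CPM to 353 and 193 CPM (-1.80 ± 0.38, adjusted p = 0.0245), and Actg2, the enteric actin, from 1113 and 1694 CPM to 395 and 182 CPM (-2.28 ± 0.42, adjusted p = 0.0161). Treated replicate 2 was the lower in each. The intermediate filament gene Synm had the smallest p (-1.84 ± 0.26, adjusted p = 0.00754). Counts of members called lower with each WT mouse left out were 10, 0, 12 and 0. The list summed to 12064 and 15915 CPM at day 0 and 7093 and 4902 CPM at day 15, and how much of the muscle layer each piece of colon held was not tested. In the enteric nervous system and its pacemaker cells, 3 of 28 genes fell and 1 rose, against 1, 1, 1 and 0 lower and none higher with each WT mouse left out. Ano1, the chloride channel of interstitial cells of Cajal, fell from 373 and 486 CPM to 89.3 and 59.5 CPM (-2.53 ± 0.35, adjusted p = 0.00654), together with Kit and Erbb3, while Ret rose from 6.76 and 8.34 CPM to 26.8 and 16.5 CPM. The neuronal gene Elavl4 was at -2.06 ± 0.94, adjusted p = 0.189 and did not pass. Of 18 skeletal muscle genes, Ckm and Tnni1 fell, and of 16 adipocyte genes 1 fell, Pck1. Of those 16, 15 were below 0 (median -1.58), and the adipocyte list summed to 777 and 465 CPM at day 0 and 399 and 227 CPM at day 15, highest in WT day 0 replicate 1. The part of fat in any result was not tested. None of 4 blood genes and none of 6 ribosomal protein genes tested was called by edgeR's quasi-likelihood test or by DESeq2, and 0 and 1 of them had an unadjusted p under 0.05.

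Many transporters of absorptive colonocytes fell. Of 47 tested transport genes, 18 fell and 2 rose, with a median of -1.28, and with each WT mouse left out 15, 9, 14 and 4 fell. Slc26a3, the chloride-bicarbonate exchanger of the apical membrane, was at 449 and 813 CPM at day 0 and 46.7 and 55.3 CPM at day 15 (-3.63 ± 0.50, adjusted p = 0.00654). Aqp8, a water channel, went from 231 and 314 CPM to 18.6 and 33.4 CPM (-3.39 ± 0.62, adjusted p = 0.0151). Both treated mice lay far below day 0 for both genes. The sodium-coupled carrier of butyrate Slc5a8 fell from 299.6 and 376 CPM to 50.8 and 37.9 CPM (-2.93 ± 0.38, adjusted p = 0.00597), and the monocarboxylate carrier Slc16a1 from 265 and 361 CPM to 127 and 97.8 CPM. Slc15a1, which takes up dipeptides, fell from 283 and 366 CPM to 25 and 23.1 CPM (-3.75 ± 0.48, adjusted p = 0.00597). Abcb1a, the P-glycoprotein drug pump, fell from 290.4 and 372 CPM to 25.4 and 31.5 CPM (-3.54 ± 0.35, adjusted p = 0.00296). Nr3c2, the receptor of aldosterone, fell from 118 and 136 CPM to 18.2 and 19.1 CPM, and the chloride channel Cftr from 107 and 121 CPM to 53.2 and 55.1 CPM (-1.07 ± 0.25, adjusted p = 0.0328). Abcb1a, Slc15a1, Slc5a8 and Slc26a3 passed with any WT mouse left out. The 2 that rose were Clca4b, from 19.9 and 18.3 CPM to 615 and 963 CPM (5.36 ± 0.92, adjusted p = 0.0122), and the peptide carrier Slc15a2, from 0.686 and 0 CPM to 11.4 and 15.7 CPM (4.69 ± 0.68, adjusted p = 0.00767).

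Among markers of colonocyte identity 12.1% were called, beside 7.74% of all genes tested. Of 33 tested, 3 fell and 1 rose, and 2, 0, 3 and 0 fell and 1 rose with each WT mouse left out. Krt20 and Cdx2 did not pass (0.64 ± 0.40, adjusted p = 0.324 and 0.43 ± 0.30, adjusted p = 0.383), and the list summed to 22730 and 30415 CPM at day 0 and 24234 and 26135 CPM at day 15. Among those that fell, Klf4, a transcription factor needed for differentiation, went from 577 and 906 CPM to 163 and 126 CPM (-2.36 ± 0.42, adjusted p = 0.0146) and Hnf4g from 36.7 and 40.9 CPM to 9.83 and 4.96 CPM (-2.38 ± 0.41, adjusted p = 0.0122). Alpl, tissue-nonspecific alkaline phosphatase, which neutrophils also carry, rose from 8.53 and 12.3 CPM to 74.5 and 122 CPM (3.28 ± 0.43, adjusted p = 0.00597). The HNF4 motif CAAAGTCCA was found in 0.358% of all promoter windows, in 0.258% of genes called higher (1 of 388) and in 0.652% of those called lower (3 of 460).

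**Figure D5:**
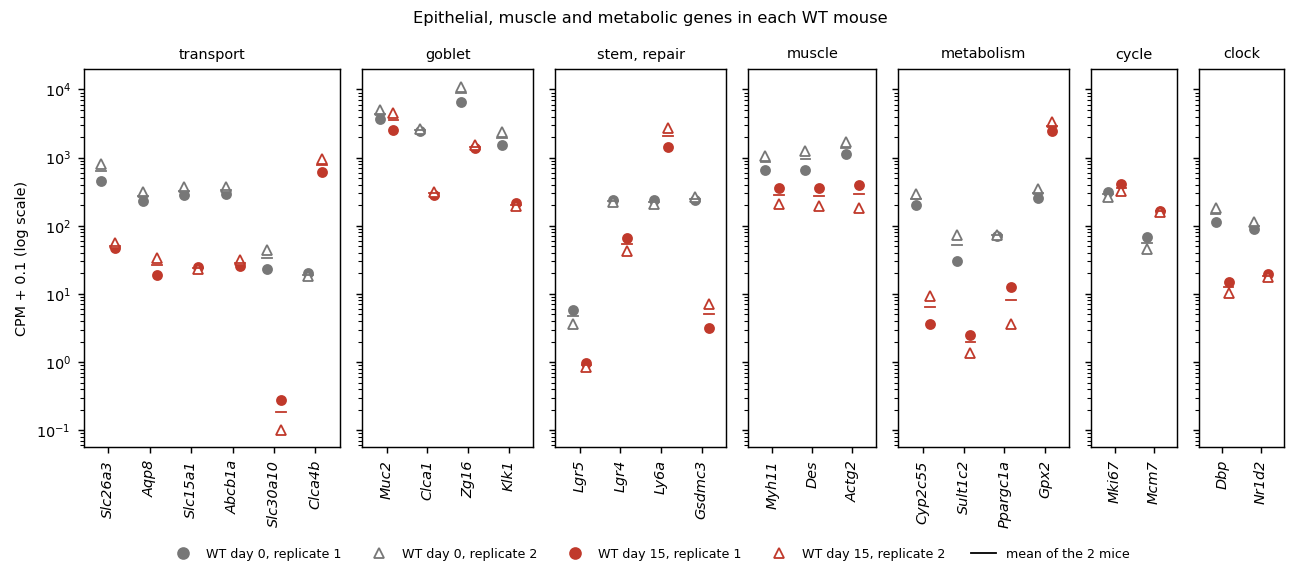
CPM plus 0.1 on a log axis for epithelial, muscle and metabolic genes in each WT mouse, drawn as in the plot of inflammatory genes. Slc26a3, Aqp8, Slc15a1, Abcb1a, Clca1, Zg16 and Gsdmc3 lie below day 0 in both treated mice and Clca4b, Ly6a and Gpx2 above it, while Muc2 and Mki67 overlap or nearly overlap between the groups.

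Several goblet cell products fell. Of 27 goblet genes, 8 fell and none rose, with a median of -1.07. Clca1, a mucus protease, was at 2474 and 2643 CPM at day 0 and 287 and 308 CPM at day 15 (-3.10 ± 0.47, adjusted p = 0.00882). Klk1 fell from 1550.1 and 2349 CPM to 212 and 191 CPM (-3.27 ± 0.43, adjusted p = 0.00597), and the trefoil peptide Tff3 from 2197 and 3227 CPM to 791 and 770.1 CPM (-1.80 ± 0.44, adjusted p = 0.0361). Muc2, the gel-forming mucin of the colon, was at 3705 and 4908 CPM and 2515 and 4490.2 CPM and did not pass (-0.30 ± 0.45, adjusted p = 0.703). Leaving out each WT mouse gave 5, 2, 5 and 1 members called lower. Of 28 genes of enteroendocrine and tuft cells, 1 fell, Cpe, and Chga and Dclk1 did not pass (0.66 ± 0.41, adjusted p = 0.320 and 0.01 ± 0.46, adjusted p = 0.995).

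In the crypt base program, 5 of 40 genes of stem cells and Wnt signalling fell and 1 rose. Lgr5, the marker of cycling crypt stem cells, was at 5.68 and 3.57 CPM at day 0 and 0.870 and 0.739 CPM at day 15 (-2.54 ± 0.60, adjusted p = 0.0334). Its homologue Lgr4, a receptor for R-spondin found throughout the epithelium, fell from 238 and 220.3 CPM to 65.9 and 42.8 CPM (-2.08 ± 0.29, adjusted p = 0.00681). The Wnt receptors Fzd5 and Fzd7 fell, Fzd5 from 146 and 175 CPM to 60.3 and 50.4 CPM, and the secreted Wnt antagonist Sfrp1 rose from 91.2 and 108 CPM to 222 and 208 CPM (1.11 ± 0.22, adjusted p = 0.0185). Axin2, a direct Wnt target, was at 36.8 and 50.8 CPM and 35.6 and 18 CPM and did not pass (-0.70 ± 0.40, adjusted p = 0.294). With each WT mouse left out, 2, 1, 3 and 0 members fell, and Lgr5 was in none of these counts.

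Genes of regenerating epithelium rose in part, and their list held 1 family that fell. Of 47 tested, 11 rose and 4 fell. Ly6a (Sca-1), a marker of regenerating crypts, was at 235 and 208 CPM at day 0 and 1427 and 2737 CPM at day 15 (3.23 ± 0.41, adjusted p = 0.00597). Its relatives Ly6c1 and Ly6e rose from 57.3 and 57.6 CPM to 400.4 and 591 CPM (3.11 ± 0.34, adjusted p = 0.00431) and from 210.0 and 88.9 CPM to 848 and 1614 CPM. The cornified envelope gene Sprr2h went from 1 read, in replicate 1, to 12.4 and 17.6 CPM, a ratio of 188 (95% counting interval 33.4 to 7429.9), and Sprr1a, Krt7 and Anxa2 rose too. Clu, a marker of revival stem cells, did not pass at 1.26 ± 0.67, adjusted p = 0.257, its day 0 mice being at 574 and 169.5 CPM and its day 15 mice at 558 and 1228 CPM. The falls were mostly in the gasdermin C cluster of chromosome 15, whose copies may share reads. Gsdmc3 (chr15:63857724-63878558) was at 237 and 262 CPM at day 0 and 3.04 and 6.97 CPM at day 15 (-5.65 ± 0.56, adjusted p = 0.00296). Gsdmc2 fell from 242 and 335 CPM to 9.05 and 23.1 CPM (-4.17 ± 0.47, adjusted p = 0.00573) and Gsdmc4 from 321 and 260.4 CPM to 0.783 and 17.8 CPM (-4.98 ± 1.07, adjusted p = 0.0262). Connective tissue growth factor (Ctgf) was the fourth gene to fall. Leaving out each WT mouse gave 4, 2, 13 and 3 members called higher and 2, 4, 3 and 3 called lower. In squamous genes, Krt13 and Krt84 rose and Tgm3 fell from 718 and 1189 CPM to 46.2 and 65 CPM (-4.10 ± 0.65, adjusted p = 0.0103), with 0, 0, 2 and 0 called higher and 1, 1, 1 and 0 lower when each WT mouse was left out, and the basal keratin Krt14 was at 0.980 and 0.794 CPM and 1.74 and 1.90 CPM. Of 25 tight junction genes 3 fell, Ocln from 104 and 136 CPM to 39.5 and 32 CPM (-1.74 ± 0.25, adjusted p = 0.00772), Cldn23 and Mylk, which smooth muscle also expresses, and Cldn2 and Cldn8 did not pass (-0.86 ± 0.29, adjusted p = 0.0922 and -1.32 ± 0.41, adjusted p = 0.0748). The count of junction genes called lower was 2, 0, 1 and 0 with each WT mouse left out.

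Of 66 cell cycle genes tested, 10 rose, none fell and 64 were above 0, with a median of 0.76 and no value above 2.14. Mcm7, of the replicative helicase, was at 67.5 and 45.3 CPM at day 0 and 167 and 158 CPM at day 15 (1.51 ± 0.30, adjusted p = 0.0209). Cenpe, a motor of the kinetochore, rose from 18.7 and 16.7 CPM to 46.9 and 37.4 CPM (1.24 ± 0.26, adjusted p = 0.0245), and the mitotic kinase Plk1 from 32.8 and 27.8 CPM to 114 and 78.5 CPM (1.66 ± 0.39, adjusted p = 0.0320). Mki67, the usual marker of proliferation, was at 311 and 264 CPM and 405 and 322 CPM and did not pass (0.34 ± 0.34, adjusted p = 0.548). Only 5 members were called higher without WT day 0 replicate 1 and none by edgeR's quasi-likelihood test without any of the other 3 WT mice. Of 35 genes of the p53 and DNA damage response 1 rose, Gadd45b, and 1 fell, Trp53inp1. Cdkn1a, the p53 target p21, was at 372 and 438 CPM and 206 and 266 CPM (-0.78 ± 0.46, adjusted p = 0.302), and Mdm2 at -0.13 ± 0.28, adjusted p = 0.802.

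Several enzymes of xenobiotic metabolism fell. Of 31 cytochrome P450 genes 12 fell and 1 rose, with a median of -1.54. Cyp2c55 was at 203 and 289 CPM at day 0 and 3.57 and 9.19 CPM at day 15 (-5.28 ± 0.66, adjusted p = 0.00597). Cyp2f2 fell from 75.7 and 91.3 CPM to 4.09 and 1.69 CPM (-4.82 ± 0.64, adjusted p = 0.00597), Cyp3a13 from 91.9 and 162 CPM to 25.7 and 19 CPM (-2.50 ± 0.31, adjusted p = 0.00597), and 5 Cyp2d genes, close copies that may share reads, fell with them. The exception was Cyp4f18, an enzyme of leukocytes that inactivates leukotriene B4, which rose from 5.59 and 1.99 CPM to 13 and 50.1 CPM (2.90 ± 0.66, adjusted p = 0.0297). Of 52 conjugation enzymes and carboxylesterases, 14 fell and none rose (median -1.18). The sulfotransferases Sult1c2 and Sult1d1 fell from 30.2 and 73.4 CPM to 2.44 and 1.27 CPM (-4.75 ± 0.66, adjusted p = 0.00680) and from 86.3 and 102 CPM to 11 and 7.08 CPM, and the glucuronosyltransferase Ugt2b34 from 236 and 315 CPM to 85.8 and 39.1 CPM (-2.14 ± 0.38, adjusted p = 0.0145). Gsta4 did not pass (0.93 ± 0.28, adjusted p = 0.0669). With each WT mouse left out, 8, 4, 12 and 3 P450 genes and 8, 6, 14 and 0 conjugation genes fell.

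In energy metabolism, 17.6% of fatty acid genes and 2.47% of oxidative phosphorylation genes were called, beside 7.74% of all genes tested. Of 68 genes of fatty acid metabolism, 10 fell and 2 rose. Ppargc1a, a coactivator of mitochondrial genes, was at 71 and 73 CPM at day 0 and 12.4 and 3.49 CPM at day 15 (-3.16 ± 0.59, adjusted p = 0.0165), and the fatty acid receptor Ppara went from 16.6 and 17.5 CPM to 4.44 and 1.48 CPM (-2.50 ± 0.57, adjusted p = 0.0301). Acsm3, which activates butyrate, fell from 260.0 and 337 CPM to 77.3 and 43.5 CPM (-2.30 ± 0.35, adjusted p = 0.00908), and Angptl4, an inhibitor of lipoprotein lipase, rose from 4.12 and 1.59 CPM to 19.7 and 21.3 CPM. Cpt1a did not pass (-0.42 ± 0.23, adjusted p = 0.269). Of 81 genes of oxidative phosphorylation, 1 rose (Cox6b2) and 1 fell (Uqcrc2, -1.08 ± 0.27, adjusted p = 0.0402), with a median of -0.15, and neither was called with any WT mouse left out. In the citrate cycle and gluconeogenesis, Pck1 fell from 132 and 216 CPM to 19.3 and 5.18 CPM (-3.81 ± 0.68, adjusted p = 0.0145) and Pcx fell as well, among 31 tested. Of 37 genes of glycolysis and hypoxia 1 rose, the lactate exporter Slc16a3, from 12.7 and 11.5 CPM to 86 and 67.2 CPM (2.65 ± 0.42, adjusted p = 0.0103), and Hk2 and Slc2a1 did not pass. Of 29 cholesterol genes 6.90% were called, Stard4 and Insig1, both lower, and 1, 0, 1 and 0 were called lower with each WT mouse left out. The count of fatty acid genes called lower was 5, 1, 7 and 0 with each WT mouse left out.

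Of 33 antioxidant and NRF2 target genes 6 rose and none fell (median 0.52), and leaving out each WT mouse gave 4, 3, 5 and 3 called higher. Gpx2, the glutathione peroxidase of gut epithelium, was at 254 and 349 CPM at day 0 and 2441 and 3269.6 CPM at day 15 (3.25 ± 0.39, adjusted p = 0.00591). Gpx3, a secreted relative, rose from 89.6 and 78.2 CPM to 426 and 374 CPM (2.25 ± 0.29, adjusted p = 0.00597), and Sod3, extracellular superoxide dismutase, from 40.6 and 26.2 CPM to 219 and 279 CPM (2.87 ± 0.38, adjusted p = 0.00597). These 3 passed with any WT mouse left out. The metallothioneins Mt1 and Mt2 rose from 334 and 314 CPM to 2016 and 2016 CPM and from 73.9 and 56.8 CPM to 854 and 930.2 CPM. Hmox1, heme oxygenase, overlapped at 117 and 14.3 CPM and 67.8 and 104 CPM. Of 49 heat shock genes edgeR called 1 higher and DESeq2 8. The 1 was Ahsa1, a cochaperone of HSP90, which went from 33.2 and 31.4 CPM to 58.3 and 80.3 CPM (1.10 ± 0.26, adjusted p = 0.0331). Hspa1b, inducible HSP70, was at 12.6 and 16.7 CPM and 15.1 and 108 CPM and did not pass (2.09 ± 0.72, adjusted p = 0.0971), with treated replicate 2 alone well above day 0. With each WT mouse left out, 0, 0, 5 and 0 heat shock genes were called higher and Ahsa1 itself in 1 of these 4 fits. In the endoplasmic reticulum, the folding factors Dnajb11, Pdia6 and Manf and the asparagine synthetase gene Asns rose among 38 genes, Dnajb11 from 115 and 89.3 CPM to 208 and 282 CPM (1.26 ± 0.30, adjusted p = 0.0336), while Hspa5 and Xbp1 did not pass (0.26 ± 0.40, adjusted p = 0.714 and 0.32 ± 0.25, adjusted p = 0.429). In this list 1, 0, 2 and 0 genes were called higher when each WT mouse was left out.

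Output genes of the circadian clock were lower at day 15. Of 20 clock genes 6 fell and none rose, with a median of -0.99. The PAR bZIP factor Dbp was at 114 and 181 CPM at day 0 and 15 and 10.0 CPM at day 15 (-3.54 ± 0.52, adjusted p = 0.00792), and its relatives Tef and Hlf fell from 146 and 198 CPM to 58 and 34.3 CPM and from 8.23 and 11.5 CPM to 2.70 and 1.16 CPM. Nr1d2 (REV-ERB beta) fell from 88.7 and 112 CPM to 19.2 and 17.4 CPM (-2.45 ± 0.27, adjusted p = 0.00431) and Per3 from 46.7 and 58.8 CPM to 12.5 and 6.76 CPM (-2.43 ± 0.37, adjusted p = 0.00925). Arntl, the activator that peaks in antiphase to Dbp, was at 15.1 and 12.3 CPM and 24.3 and 20.7 CPM and did not pass (0.70 ± 0.38, adjusted p = 0.264). Leaving out each WT mouse gave 4, 3, 7 and 1 members called lower. The hour of collection is not given in the sources used here, so treatment and time of day cannot be told apart for these genes. Of 29 immediate early genes, Klf4 and Klf6 fell and Klf2 rose, and Fos and Egr1 did not pass (-0.58 ± 0.60, adjusted p = 0.563 and -0.02 ± 0.41, adjusted p = 0.983).

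The changes in WT mice were set beside those of mice labelled null for Hsf1, the transcription factor of the heat shock response. Hsf1 reads remained in these null mice, at 14.0 and 11.9 CPM at day 0 and 13.5 and 9.09 CPM at day 15. A difference of the response between genotypes was called for 1 gene by edgeR's quasi-likelihood test, 0.00696% of genes tested. DESeq2 called 130, and between 0 and 50 were called by edgeR with 1 of the 8 mice left out, the 50 without Hsf1 null day 15 replicate 2. Among the genes called in WT mice, the median log2 fold change in Hsf1 null mice was 1.31 for the 499 higher, against 1.80 in WT, and -0.96 for the 613 lower, against -1.72 in WT. The genes were chosen for their change in WT mice, which favours large WT values, so these medians are given side by side and not compared. The change had the same sign in Hsf1 null mice for 480 of the 499 and for 548 of the 613. The 4 genes that follow are examples with a larger change in WT mice. Saa3 was at 5.67 and 5.39 CPM at day 0 and 35.2 and 40.4 CPM at day 15 in null mice, and its response differed between genotypes by 5.66 ± 0.70, adjusted p = 0.0744. For Igfbp5 the null mice were at 121 and 151 CPM and 58.2 and 128 CPM, and the difference of the responses was 3.76 ± 0.53, adjusted p = 0.0989. Gsdmc3 was at 332 and 174 CPM and 183 and 81.9 CPM (difference -4.71 ± 0.69, adjusted p = 0.102), and Clca1 at 1747 and 2773 CPM and 3082 and 1232 CPM (difference -3.04 ± 0.62, adjusted p = 0.273). None of these 4 differences passed. The one that did was that of Slc15a2.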

How the data were processed

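RNA of the distal colon of 8 mice labelled male was sequenced, 2 each of WT day 0, WT day 15, Hsf1 null day 0 and Hsf1 null day 15, grouped by the sample labels. The authors used STAR to align reads to the mouse build mm10 and deposited raw counts per gene symbol, in which every listed gene had at least 6 counts in some sample. The counting program and annotation are not given in the sources used here. A second deposited table of counts divided by DESeq2 size factors was not used. Reads of close gene copies may be shared between them. Total counts per library were between 2553348 and 12440257.

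Differences were tested with edgeR 4.0.16 in R 4.3.3. Library sizes were adjusted by TMM, and a single model held the 4 groups of all 8 mice, which share an estimate of the spread (prior degrees of freedom 5.97 beside 4 residual). Genes were kept at a mean normalized count above 5 and tested by the quasi-likelihood test, with Benjamini-Hochberg adjustment over all of them, and called where the adjusted p was under 0.05 and the log2 fold change above 1 in size. The SE of a log2 fold change was derived from its F statistic. The labels do not tell whether mice shared a litter or cage. With 2 mice a group no exact test of a single value can pass. A lower bound of a fold was computed against 3 reads over the group, and intervals of ratios are exact 95% intervals for counting error only. The scripts were checked on simulated counts. Alternatives were DESeq2 1.42.0, its size factors, other filters, a replicate block, the WT mice alone, thinning to the smallest library and leaving out each mouse.

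The comparison, the members and the 49 gene lists were chosen with earlier results of these data known. Named genes are Hsf1, the 8 largest changes in each direction among called genes without overlap, key members of each list and the 3 called members with the smallest p in each list and direction. Other genes were chosen after their values were seen, in the report Anxa2, Cd177, Cftr, Col4a2, Ctgf, Ctla4, Cxcl14, Cxcr2, Duox2, Eln, Foxp3, Fpr1, Fpr2, Hlf, Hp, Il33, Krt7, Lbp, Ltf, Ly6c2, Manf, Mmp10, Mmp13, Mmp2, Mmp3, Mmp9, Mt2, Myd88, Nr3c2, Pla2g2a, Plat, Plk1, Ppara, Ppargc1a, Slc16a1, Sprr1a, Sprr2h, Tef and Tff3. Some called genes are counted in their lists but not reported here by name. Coordinates are those of GENCODE M21 on GRCm38, and promoter sequences are from RefSeq, GRCm38.p6.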

Additional observations from a re-analysis of the deposited data

Results flagged for a closer look

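The response of Slc15a2, a carrier of dipeptides, differed between genotypes by a test of the difference itself. It was at 0.686 and 0 CPM at day 0 and 11.4 and 15.7 CPM at day 15 in WT mice, and at 31.2 and 19 CPM and 0.155 and 0.401 CPM in Hsf1 null mice. Values did not overlap between days in either genotype and moved in opposite directions. The difference of the responses (WT minus null) was 11.09 ± 0.98, adjusted p = 0.00761 on the log2 scale by edgeR's quasi-likelihood test. Its size rests on levels near 0, and was 16.06 without WT day 0 replicate 1 and 14.52 after thinning to the smallest library. The adjusted p was 0.223, 0.0855 and 0.0571 without Hsf1 null day 0 replicate 1, Hsf1 null day 0 replicate 2 and Hsf1 null day 15 replicate 1, and between 0.00587 and 0.0174 without each of the other mice. With 2 mice a group, samples far from their group were not searched for.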

How the results depend on the processing

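With 2 mice a group, depth and single mice limit what could be called. In the WT response, DESeq2 called 1737 genes (868 higher), thinning all libraries to the smallest 727 (319 higher and 408 lower), and leaving out 1 mouse between 92 and 1336, with 36 to 611 higher and 38 to 738 lower. DESeq2 size factors in edgeR, no filter, another filter, no fold threshold and the 4 WT mice alone gave between 950 and 1169. For the difference between genotypes, 1 gene was called, against 130 by DESeq2, 2 without a filter, 4 after thinning and 0 to 50 with 1 mouse left out. It was 0 by edgeR's quasi-likelihood test without Hsf1 null day 0 replicate 1, Hsf1 null day 0 replicate 2 and Hsf1 null day 15 replicate 1, where 1746, 690 and 761 genes had an unadjusted p under 0.05. The 155 named genes that were called lost the call in 358 of 1236 fits with 1 mouse left out and in 85 of 1233 others. Beyond the smaller number of mice or reads, the cause was not tested.

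Replicate numbers named different animals. Across genes, the departures of equally numbered mice from the means of their groups correlated at r = -0.29 between the WT groups. For the other 5 pairs of groups r was between -0.26 and 0.15. The main fit held no block by number. With 2 mice a group these values cannot tell whether equally numbered mice shared a batch. A replicate block gave 868 called genes (350 higher and 518 lower) and 2 for the difference between genotypes. The crossed pairing of the WT day 0 mice, an alternative chosen after seeing the data, gave 1856 (905 higher and 951 lower) and 54.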

Other observations

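Among the 63 genes called in WT colon whichever WT mouse was left out, 29 were in no list, and the following were chosen after their values were seen. Cps1, carbamoyl phosphate synthetase of the urea cycle, was at 13.1 and 14.3 CPM at day 0 and 0.783 and 0.634 CPM at day 15 (-4.23 ± 0.51, adjusted p = 0.00591). Otc, which follows it in the cycle, also fell but is not among the 63. Slc6a4, the transporter that clears serotonin, fell from 46 and 46.1 CPM to 3.65 and 0.528 CPM (-4.41 ± 0.69, adjusted p = 0.0101). The peroxisomal oxidase Hao2 went from 172 and 287 CPM to 11.2 and 14 CPM (-4.18 ± 0.45, adjusted p = 0.00415). Aldh6a1, of valine breakdown, fell from 40.8 and 47.2 CPM to 8.52 and 9.19 CPM, and Dio1, which activates thyroid hormone, from 43.5 and 48.4 CPM to 4.09 and 2.53 CPM (-3.78 ± 0.36, adjusted p = 0.00283). Fut9, a fucosyltransferase, fell from 49.3 and 59.9 CPM to 4.35 and 1.90 CPM, and the actin-severing protein Scin from 129.6 and 186 CPM to 22.9 and 18.8 CPM. Casp14, a caspase of cornifying epithelium, fell from 83.3 and 106 CPM to 8.0 and 1.37 CPM (-4.30 ± 0.68, adjusted p = 0.0103), while Krt13 rose.

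Of those that rose, Isx, an intestinal homeobox factor that represses vitamin A uptake, went from 0.392 and 0 CPM to 11.6 and 11 CPM (5.17 ± 0.75, adjusted p = 0.00772), with both treated mice alike. The serine protease Prss22 had 1 read at day 0 and reached 22.2 and 13.2 CPM. Wfdc18, a small protein with the fold of protease inhibitors, rose from 12.5 and 16.7 CPM to 319.9 and 361 CPM (4.57 ± 0.60, adjusted p = 0.00597). Bmp8b, a bone morphogenetic protein, rose from 0.490 and 0.397 CPM to 11.3 and 34 CPM, and Ggt5, which cleaves glutathione conjugates and leukotriene C4, from 6.37 and 3.57 CPM to 36.4 and 46.3 CPM (2.97 ± 0.43, adjusted p = 0.00754). Tmem252, a membrane protein, rose from 1.08 and 1.59 CPM to 33.8 and 37.7 CPM with the treated mice close together (4.84 ± 0.48, adjusted p = 0.00296).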
